A study of Mus musculus with 10 samples.

Results

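The comparison set mouse bone-marrow-derived macrophages exposed for 1 h to AmTARS against the same kind of cells exposed for 1 h to Pam3CSK4, and it covered 4 libraries of the 10 in the series and 11407 of the 11617 genes listed. These are the genes whose level averaged 1 CPM (reads per 1e+06) or more over the 10 libraries, and the 210 others were not tested. The labels give the cells as marrow cells of C57BL/6 mice, cultured in 10% fetal bovine serum with 50 ng/ml GM-CSF, a growth factor that drives myeloid cells. They state the age of the mice as 6 weeks in one field and 7 weeks in another. The 5 groups, with 2 libraries each, were AmTARS for 1 h, AmTARS for 3 h, Pam3CSK4 for 1 h, Pam3CSK4 for 3 h and an untreated control that carries no time label. All of them shared the GM-CSF culture, and the labels name no altered genotype. AmTARS, read from its name, is the threonyl-tRNA synthetase of Akkermansia muciniphila, a bacterium of the gut mucus, applied here from outside the cell. Pam3CSK4, given at 10 ng/ml, is a synthetic lipopeptide used to activate TLR2 together with TLR1. The AmTARS dose is written as 0.5 with the unit mm, so how the 2 doses relate to each other is not known, and each difference below is between these treatments as given. The labels do not tie the libraries of a group to different animals or dishes; the p-values therefore cover the spread between these libraries, which may be technical.

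Toll-like receptor 2 is a surface receptor of macrophages that pairs with TLR1 or TLR6 and signals through MyD88 to the transcription factor NF-kB and to the MAP kinases. The first genes to respond are transcribed without new protein synthesis and include chemokines, tumour necrosis factor, the immediate-early transcription factors, and the inhibitors that later shut the signal off. The series title presents both agents as ligands of TLR2, and the question the comparison addresses is which messenger RNAs differ between them at this first time point.

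The 4 libraries held 37226465 and 32446075 reads in listed genes with AmTARS and 27398791 and 35836270 with Pam3CSK4, and the correlation between the log2 values of the 2 libraries of a group was 0.9978 to 0.9984 in the 5 groups. Throughout, the values of AmTARS are given for replicates 2 and 3, those of Pam3CSK4 at 1 h for replicates 1 and 3, and those of the control for replicates 2 and 3. All 7 macrophage markers were listed, among them Adgre1, Csf1r and Cd68. They summed to 51126 to 52914 CPM with AmTARS and 51328 to 51672 CPM with Pam3CSK4. Of the 6 dendritic cell markers 2 were listed, Itgax and Ccr7. Their sum was 60.0 to 68.3 CPM with AmTARS and 60.3 to 66.2 CPM with Pam3CSK4. Of the 8 neutrophil markers 7 were listed (Ly6g was not), with 2131 to 2216 CPM with AmTARS, 2131 to 2522 CPM with Pam3CSK4 and 1625 to 1707 CPM in the control. All 6 stromal markers were listed, with 1346 to 1475 CPM with AmTARS and 1445 to 1572 CPM with Pam3CSK4. Markers of T cells, NK cells and erythroid cells were not among the listed genes, and no marker of any of the 10 cell types differed between the ligands at 1 h. The part of other cell types in the results was not tested, and in bulk RNA fewer cells of a type and less RNA per cell cannot be told apart.

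At 1 h the ligands differed in 21 genes, 20 of them lower and 1 higher with AmTARS than with Pam3CSK4. These are 0.184% of the genes tested, 0.175% for the lower direction and 0.00877% for the higher. A gene was taken to differ at an adjusted p below 0.05 in limma. The largest differences were in 2 neutrophil-attracting chemokines (Cxcl2, Cxcl1), tumour necrosis factor (Tnf), the TNF-family ligand Tnfsf9 and the transcription factor Egr1. These 5 differed by at least 2-fold, and no other gene tested reached that size. The called differences ran from 0.31 to 1.45 in log2 units, and in all 21 genes the AmTARS libraries did not overlap the Pam3CSK4 libraries. Among all genes tested, libraries that did not overlap were found for 18.8% with AmTARS lower and for 18.9% with AmTARS higher, and 957 genes had an unadjusted p below 0.05. For 97.6% of the genes tested, 11135 in number, the difference lay within 0.25 log2 units of 0. The median standard error (SE) of a difference was 0.071 log2 units and the median reach of its 95% interval 0.15 to either side. Each ligand differed from the control in far more genes, AmTARS in 4415 (38.7%, of which 18.9% of all genes higher and 19.8% lower) and Pam3CSK4 in 5556 (48.7%, 23.9% higher and 24.8% lower). Both of these contrasts share the control libraries, and their counts carry a trend with transcript length that is given further on.

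**Figure D1:**
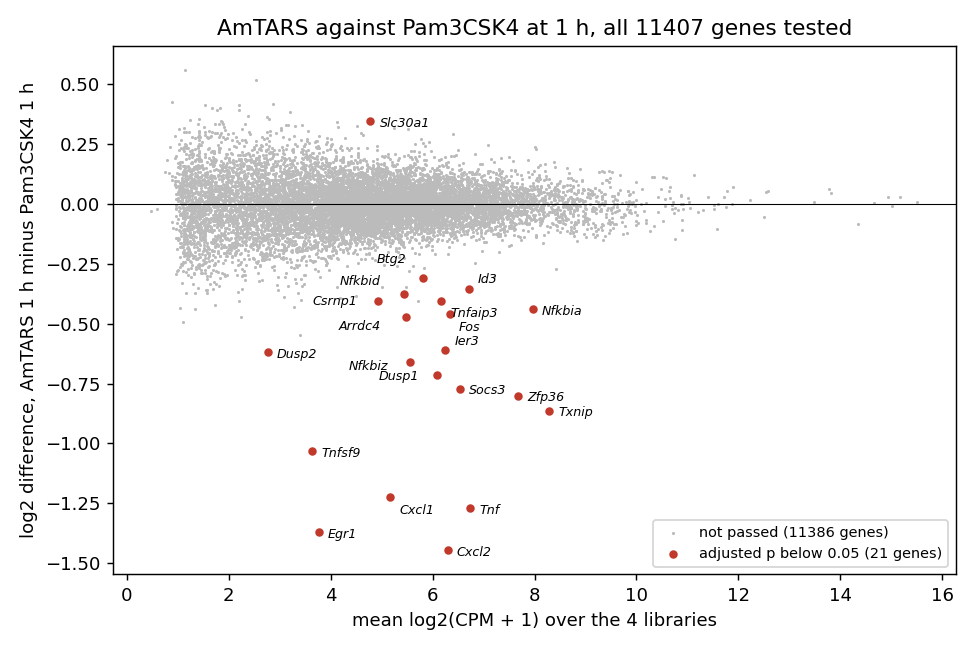
Each point is 1 of the 11407 genes tested, with its mean log2(CPM + 1) over the 4 libraries on the x axis and the log2 difference AmTARS minus Pam3CSK4 at 1 h on the y axis. The 21 genes with an adjusted p below 0.05 are red and named: 20 lie below 0 and 1, Slc30a1, above it.

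The plot of all genes shows that 20 of the 21 genes that differed stand on one side, at middle levels, while the most abundant messages lie close to 0. The count depended on single libraries: 15 genes differed without AmTARS replicate 2 and 16 without Pam3CSK4 replicate 1, and the 6 genes lost in both cases were Dusp2, Csrnp1, Nfkbid, Id3, Btg2 and Slc30a1. It also depended on the spread taken from other groups, since 34 genes differed without Pam3CSK4 3 h replicate 3, 33 without Pam3CSK4 3 h replicate 2 and 42 when the 4 libraries alone were fitted.

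Of the 5 genes that differed at least 2-fold, 4 encode secreted or surface signals, Cxcl2, Tnf, Cxcl1 and Tnfsf9. Genes were grouped by 33 lists of pathways and cell functions, and a member counts as measured where it was among the genes tested. The lists were chosen with earlier results of these data known. Of all genes tested 0.175% were lower and 0.00877% higher with AmTARS, the shares to set beside each list count below. Of 16 measured chemokines 2 fell with AmTARS relative to Pam3CSK4 and 14 did not pass the test. Of 18 measured cytokines and TNF-family ligands 2 fell and 16 did not pass. The median log2 difference was -0.16 for the chemokines and -0.11 for the cytokines, beside 0.00 (-0.002) for all genes tested. Cxcl2 and Cxcl1 encode chemokines that recruit neutrophils through the receptor CXCR2 and lie near each other on chromosome 5. Cxcl2 (chr5:90903871-90905938, build mm10) stood at 43.7 and 49.6 CPM with AmTARS, at 129 and 128 CPM with Pam3CSK4 and at 16.7 and 18.8 CPM in the control. Every AmTARS library lay above the control and below every Pam3CSK4 library. The log2 difference between the ligands was -1.45 (SE 0.11, adjusted p = 4.08e-08), with 1.34 for AmTARS and 2.79 for Pam3CSK4 against the control. Cxcl1 (chr5:90891241-90893115) had 22.3 and 22.8 CPM with AmTARS, 57.0 and 51.2 CPM with Pam3CSK4 and 12.57 and 12.005 CPM in the control. The order of the groups was the same as for Cxcl2, and the log2 difference between the ligands was -1.23 (SE 0.11, adjusted p = 7.52e-07). The third of the neighbouring neutrophil chemokines, Cxcl3, named here after its values were seen, had 33.3 and 30.6 CPM with AmTARS, 35.7 and 34.7 CPM with Pam3CSK4 and 23.6 and 24.3 CPM in the control. Its ligand difference at 1 h did not pass (-0.14, 95% interval -0.36 to 0.09, adjusted p = 0.761).

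Tnf encodes tumour necrosis factor, a central inflammatory cytokine. It reached 64.0 and 71.7 CPM with AmTARS (chr17:35199381-35202007), against 165 CPM in both Pam3CSK4 libraries and 23.7 and 23.6 CPM in the control. Its log2 difference between the ligands was -1.27 (SE 0.07, adjusted p = 6.59e-10), and against the control it rose by 1.48 with AmTARS and by 2.75 with Pam3CSK4. Tnfsf9, the ligand of the T-cell co-stimulator 4-1BB, had 7.60 and 7.76 CPM with AmTARS, 17.0 and 16.5 CPM with Pam3CSK4 and 5.28 and 4.94 CPM in the control. It differed by -1.03 log2 units between the ligands (SE 0.09, adjusted p = 5.65e-07), and again the 3 groups did not overlap.

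Other cytokines gave smaller or less certain differences. Il1b, the precursor of interleukin-1 beta, had 42.2 and 47.1 CPM with AmTARS, 59.9 and 58.8 CPM with Pam3CSK4 and 21.5 and 24.6 CPM in the control. Its libraries did not overlap between the ligands, but its difference of -0.40 did not pass (95% interval -0.67 to -0.14, adjusted p = 0.371). It passed without Pam3CSK4 3 h replicate 2 (adjusted p = 0.00234), without Pam3CSK4 3 h replicate 3 (adjusted p = 0.00262) and in a fit of the 4 libraries alone (adjusted p = 0.000306). The Il1b level in those 3 h libraries was 206 and 332 CPM. Cxcl10, a chemokine for activated T cells, had 8.11 and 7.30 CPM with AmTARS and 14.6 and 9.33 CPM with Pam3CSK4, and its difference of -0.55 did not pass (95% interval -0.84 to -0.25, adjusted p = 0.211). Without Pam3CSK4 replicate 3 its difference was -0.84 (adjusted p = 0.00312), and without Pam3CSK4 replicate 1 it was -0.25 (adjusted p = 1). Il6 was near the floor of the table at this time, with 1.71 and 2.85 CPM with AmTARS, 2.22 and 2.95 CPM with Pam3CSK4 and 1.66 and 1.95 CPM in the control. Its difference of -0.14 did not pass (adjusted p = 0.868), nor did that of Il12b, a subunit of interleukin-12 (-0.11, adjusted p = 0.916). Il10, Il23a, Csf2, Csf3 and Ifnb1 were not analysed here.

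NF-kB subunits, the IkB family and the brakes on signalling were the next group. Of 11 measured NF-kB subunits and IkB proteins 3 fell with AmTARS relative to Pam3CSK4. Of 18 measured brakes on Toll-like receptor and cytokine signalling 3 fell too, beside 0.175% of all genes tested. None of either list was higher, where 0.00877% of all genes tested were. The median log2 differences of these lists, in the order given, were -0.07 (-0.065) and 0.01 (0.005). Nfkbia encodes IkB-alpha, which keeps NF-kB in the cytoplasm and is itself an NF-kB target. It had 215 and 212 CPM with AmTARS (chr12:55489410-55492647), 295 and 285 CPM with Pam3CSK4 and 118 and 120 CPM in the control. The ligands differed by -0.44 (SE 0.05, adjusted p = 0.000104), and each ligand lay above the control by 0.84 with AmTARS and by 1.28 with Pam3CSK4. Nfkbiz, an atypical nuclear IkB protein that helps switch on secondary response genes, had 35.3 and 37.7 CPM with AmTARS, 56.1 and 60.4 CPM with Pam3CSK4 and 21.3 and 20.4 CPM in the control, a log2 difference between the ligands of -0.66 (SE 0.06, adjusted p = 3.15e-06). The related Nfkbid had 34.3 and 40.5 CPM with AmTARS and 47.7 and 49.6 CPM with Pam3CSK4, a difference of -0.37 (SE 0.07, adjusted p = 0.0156). Its call was lost without AmTARS replicate 2 (-0.26, adjusted p = 0.627), without Pam3CSK4 replicate 1 (adjusted p = 0.0948) and without Pam3CSK4 replicate 3 (adjusted p = 0.145).

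Among the brakes, Zfp36 showed the largest difference. It encodes tristetraprolin, which binds AU-rich messages such as that of Tnf and speeds their decay. Its level was 151 and 158 CPM with AmTARS (chr7:28376784-28380253), 268 and 271 CPM with Pam3CSK4 and 108 and 104 CPM in the control. The difference of -0.80 (SE 0.05, adjusted p = 6.59e-10) was far above the spread between the libraries of either ligand. Socs3, an inhibitor of cytokine receptor signalling through JAK kinases, had 67.8 and 72.8 CPM with AmTARS, 122 and 119 CPM with Pam3CSK4 and 47.3 and 43.1 CPM in the control, and differed by -0.77 (SE 0.07, adjusted p = 9.62e-07). Tnfaip3, which encodes the ubiquitin-editing enzyme A20, had 60.9 and 62.5 CPM with AmTARS, 78.9 and 85.1 CPM with Pam3CSK4 and 49.2 and 47.2 CPM in the control, and differed by -0.40 (SE 0.06, adjusted p = 0.000689). In all 3 genes each AmTARS library lay between the control and the Pam3CSK4 libraries.

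The promoters of 18 of the 21 genes were matched by symbol in RefSeq (build GRCm38.p6), as the 250 bases before the transcription start. They were searched on both strands for an NF-kB motif, GGGA and TTCC with any 2 bases between them, which 1.21% of 32851 promoter windows of the same length hold. It was found in 3 of the 18, those of Cxcl1, Cxcl2 and Nfkbia, which are printed 5′ to 3′ on the strand of the gene because the 2 chemokines carry the same 11 bases close to the start; capitals mark the match, with the 10-base Nfkbia match read on the opposite strand.
Cxcl2 chr5:90903649-90903898 (+ strand): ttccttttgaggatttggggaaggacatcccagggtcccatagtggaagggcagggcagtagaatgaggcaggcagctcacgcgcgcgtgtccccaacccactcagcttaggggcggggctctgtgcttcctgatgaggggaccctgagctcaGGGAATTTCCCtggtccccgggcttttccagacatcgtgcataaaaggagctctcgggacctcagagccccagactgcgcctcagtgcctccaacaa
Cxcl1 chr5:90890995-90891244 (+ strand): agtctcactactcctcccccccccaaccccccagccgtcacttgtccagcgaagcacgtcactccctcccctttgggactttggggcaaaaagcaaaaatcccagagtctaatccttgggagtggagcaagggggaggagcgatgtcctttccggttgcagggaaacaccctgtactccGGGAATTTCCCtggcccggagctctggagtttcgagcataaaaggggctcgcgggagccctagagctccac
Nfkbia chr12:55492648-55492897 (- strand): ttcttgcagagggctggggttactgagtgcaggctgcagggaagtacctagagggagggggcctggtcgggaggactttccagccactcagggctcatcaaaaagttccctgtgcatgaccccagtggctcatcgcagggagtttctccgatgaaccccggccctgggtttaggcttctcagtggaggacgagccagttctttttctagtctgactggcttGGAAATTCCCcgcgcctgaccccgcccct
The match began 97 bases before the start in Cxcl2, 71 in Cxcl1 and 29 in Nfkbia. A match describes the letters of the window, and binding was not measured.

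Immediate-early genes code for transcription factors and other proteins made within minutes of a stimulus. Of 21 measured members 4 differed, all lower with AmTARS, beside 0.175% of all genes tested. The median over the list was -0.09 (-0.086). Egr1, a zinc-finger transcription factor downstream of the MAP kinase ERK, was the largest difference of the list. It had 6.67 and 8.29 CPM with AmTARS, 21.6 and 20.1 CPM with Pam3CSK4 and 6.34 and 6.92 CPM in the control. The 2 AmTARS libraries overlapped the control, while both Pam3CSK4 libraries lay far above. Between the ligands it differed by -1.37 (SE 0.09, adjusted p = 1.34e-08). Against the control it rose by 1.52 with Pam3CSK4 and did not pass with AmTARS (0.15, adjusted p = 0.228). Fos, a subunit of the AP-1 transcription factor, had 65.7 and 69.9 CPM with AmTARS, 91.5 and 95.9 CPM with Pam3CSK4 and 53.0 and 50.7 CPM in the control, a ligand difference of -0.46 (SE 0.05, adjusted p = 4.17e-05). Ier3, an early response gene tied to cell survival, had 58.7 and 62.6 CPM with AmTARS, 95.7 and 90.5 CPM with Pam3CSK4 and 43.4 and 43.8 CPM in the control, and differed by -0.61 (SE 0.06, adjusted p = 3.15e-06). For Fos and Ier3, unlike for Egr1, every AmTARS library exceeded the control.

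3 further regulators of growth and transcription had differences that rested on single libraries. Btg2, an anti-proliferative early gene, had 48.6 and 50.8 CPM with AmTARS, 62.7 and 60.8 CPM with Pam3CSK4 and 43.2 and 43.6 CPM in the control, and differed by -0.31 (SE 0.05, adjusted p = 0.00827). Csrnp1, a nuclear protein outside the lists and named after its values were seen, had 24.2 and 26.4 CPM with AmTARS and 35.3 and 32.4 CPM with Pam3CSK4 (-0.41, SE 0.07, adjusted p = 0.00571). Id3, an inhibitor of basic helix-loop-helix transcription factors and likewise outside the lists and named after its values were seen, had 88.7 and 95.4 CPM with AmTARS and 125 and 111 CPM with Pam3CSK4 (-0.35, SE 0.06, adjusted p = 0.0151). None of the 3 passed without AmTARS replicate 2 (adjusted p = 0.297, 0.29 and 0.51 in the order given) or without Pam3CSK4 replicate 1 (adjusted p = 0.178, 0.2 and 0.435). Among the genes outside the threshold were Ier2 (-0.35, adjusted p = 0.0706) and Junb (-0.27, adjusted p = 0.124), early genes that were named after their values were seen. Genes higher with AmTARS lay as near to it or nearer, Kpna4 (0.29, adjusted p = 0.0543), Lypla1 (0.31, adjusted p = 0.0706) and Cpne3 (0.26, adjusted p = 0.0706). They too were named after their values were seen.

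MAP kinase phosphatases end the signal that switches such genes on. Of 17 measured MAP kinase feedback genes 2 phosphatases were lower with AmTARS, beside 0.175% of all genes tested. Dusp1 had 46.3 and 58.1 CPM with AmTARS, 85.1 and 86.2 CPM with Pam3CSK4 and 33.9 and 34.5 CPM in the control. Both AmTARS libraries lay between the control and Pam3CSK4, and the difference between the ligands was -0.71 (SE 0.08, adjusted p = 5.74e-05). Dusp2 was expressed at a low level, 4.45 and 4.55 CPM with AmTARS, 7.44 CPM in both Pam3CSK4 libraries and 2.46 and 3.18 CPM in the control, and differed by -0.62 (SE 0.10, adjusted p = 0.00585). The call for Dusp2 was lost without AmTARS replicate 2 (adjusted p = 0.129), without Pam3CSK4 replicate 1 (adjusted p = 0.0948) and without Pam3CSK4 replicate 3 (adjusted p = 0.0597).

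The cyclic-AMP response element, the binding motif of CREB, reads TGACGTCA, and 1.55% of the 32851 promoter windows hold it. It was present in the windows of 3 of the 18 matched genes, Btg2, Dusp1 and Nfkbid. Those of Dusp1 and Btg2 are shown, in RefSeq build GRCm38.p6 and with the motif in capitals, since they belong to the early genes just described.
Dusp1 chr17:26508473-26508722 (- strand): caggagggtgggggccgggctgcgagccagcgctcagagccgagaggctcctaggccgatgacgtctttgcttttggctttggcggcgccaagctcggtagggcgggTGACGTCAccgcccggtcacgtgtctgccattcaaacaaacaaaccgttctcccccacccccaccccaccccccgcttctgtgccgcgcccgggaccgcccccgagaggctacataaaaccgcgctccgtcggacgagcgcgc
Btg2 chr1:134079156-134079405 (- strand): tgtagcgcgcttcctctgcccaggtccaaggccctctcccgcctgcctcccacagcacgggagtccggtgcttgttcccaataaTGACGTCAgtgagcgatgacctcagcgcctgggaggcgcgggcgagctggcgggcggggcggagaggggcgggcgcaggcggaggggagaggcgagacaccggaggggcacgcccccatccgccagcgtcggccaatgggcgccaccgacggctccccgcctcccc
The match began 143 bases before the start in Dusp1 and 166 in Btg2. The AP-1 motif TGANTCA, held by 6.75% of windows, was present in those of Csrnp1 and Tnfaip3, and the CArG box bound by serum response factor, held by 1.47%, in those of Arrdc4 and Zfp36. The CREB and cyclic-AMP list itself had 0 of 19 measured members that differed, with a median log2 difference of 0.03 (0.032); Crem, which is induced through this element, had 18.1 and 17.3 CPM with AmTARS and 17.5 and 16.2 CPM with Pam3CSK4.

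**Figure D2:**
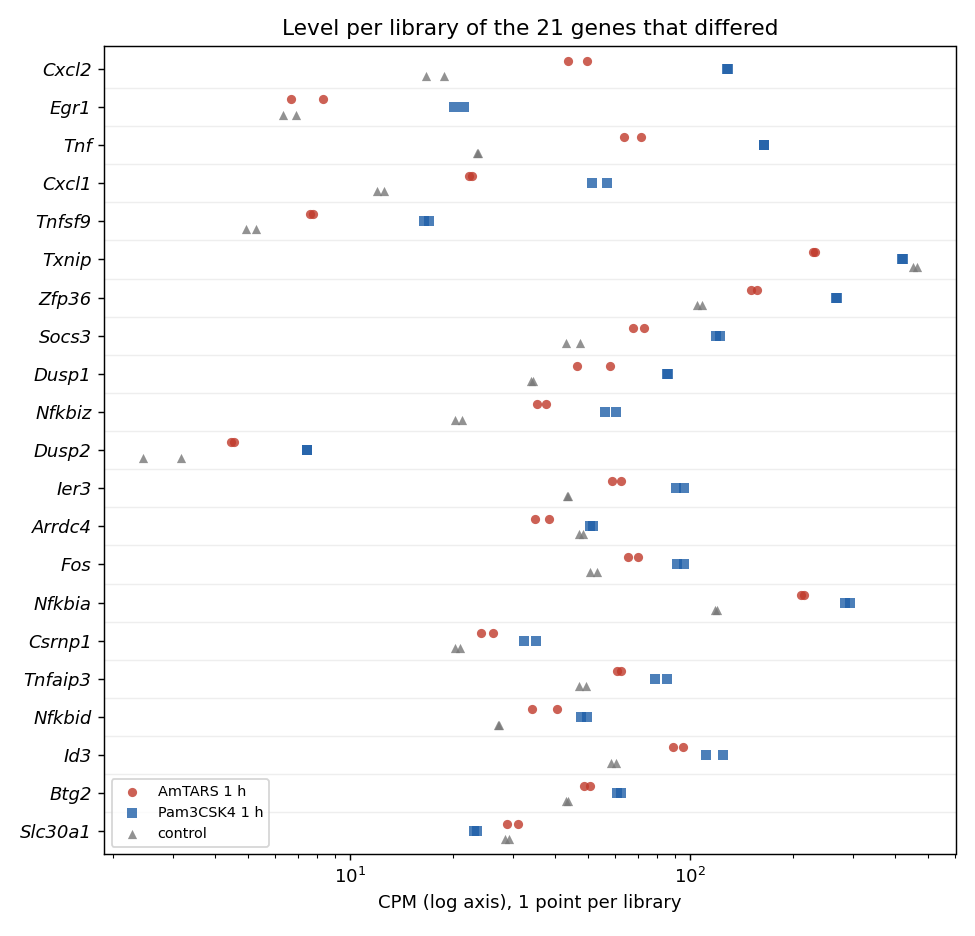
Rows are the 21 genes that differed, ordered by log2 difference, and the x axis gives CPM on a log scale. Each library is 1 point: circles are AmTARS at 1 h, squares Pam3CSK4 at 1 h and triangles the control. In 17 rows the circles lie between the triangles and the squares.

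The levels by library show how AmTARS stood between the control and Pam3CSK4. Of the 20 genes that were lower with AmTARS, 18 were higher with Pam3CSK4 than in the control, beside 23.9% of all genes tested. Both contrasts use the same 2 Pam3CSK4 libraries, so the choice of the 20 genes favours this count. In 17 of the 18 every control library lay below every AmTARS library and every AmTARS library below every Pam3CSK4 library, the exception being Egr1. That AmTARS lay below Pam3CSK4 follows from how the genes were chosen, and the share of all genes in this order was not counted. The same 17 genes also rose with AmTARS against the control, as did 18.9% of all genes tested. Expressed in CPM above the control mean, the AmTARS rise was 5.97% of the Pam3CSK4 rise in Egr1 and 55.6% in Id3, with a median of 34.6% over the 18 genes. The value of Egr1 was 0.290% with AmTARS replicate 2 and 11.7% with replicate 3, and its AmTARS rise did not pass; that of Id3 was 49.9% and 61.4%. A value below 100% follows from how these genes were chosen, since each is lower with AmTARS. Cxcl1 and Cxcl2 lay at 24.5% and 26.1%, Tnf at 31.3%, Socs3 at 33.3% and Nfkbia at 55.3%. The 2 AmTARS libraries did not stand equally: replicate 3 was above replicate 2 in 17 of the 18 genes, the exception being Nfkbia. Within the Pam3CSK4 libraries replicate 3 was above replicate 1 in 7 of the 18. In the 2 comparisons with the control the log2 fold changes followed transcript length across 11366 genes (Spearman's rho -0.706 for AmTARS and -0.699 for Pam3CSK4, across genes, which are not independent replicates). With length and GC content accounted for, all 18 genes still rose with Pam3CSK4 and 16 with AmTARS, Dusp2 having an adjusted p of 0.0515 against the control; the AmTARS rise was 0.22 in place of 0.47 in Ier3 and 0.57 in place of 0.35 in Tnfaip3.

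The 2 lower genes that Pam3CSK4 did not raise in this way were both arrestin-domain genes, of which 5 were measured. Of all genes tested 0.175% were lower. Txnip encodes a protein that binds thioredoxin and restrains glucose uptake, and Arrdc4 its relative; transcription of both is known to follow sugar supply through the factors MondoA and ChREBP. Txnip had 230 and 232 CPM with AmTARS (chr3:96557957-96561883), 421 and 420 CPM with Pam3CSK4 and 463 and 452 CPM in the control. AmTARS stood alone at the low end, and the libraries of each group lay very close together. The difference between the ligands was -0.86 (SE 0.04, adjusted p = 8.41e-11), the smallest adjusted p of all genes tested. Against the control Txnip fell by 0.98 with AmTARS and by 0.12 with Pam3CSK4 (adjusted p = 0.021). Arrdc4 had 34.99 and 38.4 CPM with AmTARS, 50.7 and 51.8 CPM with Pam3CSK4 and 46.9 and 48.3 CPM in the control, and differed by -0.47 between the ligands (SE 0.06, adjusted p = 0.00017). With AmTARS it fell by 0.37 against the control (adjusted p = 0.000141); with Pam3CSK4 its difference of 0.10 did not pass (adjusted p = 0.167) and was 0.17 after the length and GC correction (adjusted p = 0.0215). Arrdc3, of the same list, had 34.0 and 38.2 CPM with AmTARS, 33.3 and 32.5 CPM with Pam3CSK4 and 37.3 and 36.2 CPM in the control, and its ligand difference did not pass (0.13, adjusted p = 0.63).

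The carbohydrate response element, searched on both strands as 2 blocks of CACG, any base and G, with 5 bases of any kind between the blocks, is held by 15 of the 32851 promoter windows, or 0.0457%. Of the 18 matched genes Txnip was the one with a match, and its window is printed to show where the element lies, with the 17 matching bases in capitals (RefSeq, GRCm38.p6).
Txnip chr3:96557707-96557956 (+ strand): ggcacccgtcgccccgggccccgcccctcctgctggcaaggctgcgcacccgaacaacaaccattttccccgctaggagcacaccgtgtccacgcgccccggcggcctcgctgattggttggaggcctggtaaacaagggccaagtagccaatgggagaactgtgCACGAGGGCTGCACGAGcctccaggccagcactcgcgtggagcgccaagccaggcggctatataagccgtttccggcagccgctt
The match lies 85 to 69 bases before the start. For Arrdc4 these letters are not in the window searched.

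Slc30a1, the plasma-membrane zinc exporter ZnT1, was the gene that was higher with AmTARS. It had 31.1 and 28.9 CPM with AmTARS, 23.1 and 23.6 CPM with Pam3CSK4 and 28.5 and 29.3 CPM in the control, so the AmTARS libraries overlapped the control and both Pam3CSK4 libraries lay below it. The difference between the ligands was 0.35 (SE 0.06, adjusted p = 0.0112). Against the control it was 0.05 for AmTARS (adjusted p = 0.537) and -0.29 for Pam3CSK4 (adjusted p = 0.000629). After the length and GC correction these became 0.22 (adjusted p = 0.0103) and -0.10 (adjusted p = 0.207), so which ligand departs from the control depends on that step, whereas the ligand difference was 0.32 (adjusted p = 0.00937). The call was lost without AmTARS replicate 2 (adjusted p = 0.472), without Pam3CSK4 replicate 1 (adjusted p = 0.178) and without Pam3CSK4 replicate 3 (adjusted p = 0.0546). The metallothioneins Mt1 and Mt2, which respond to zinc, were among the 7 of 8 measured metal response genes that did not pass (-0.10 and -0.15).

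**Figure D3:**
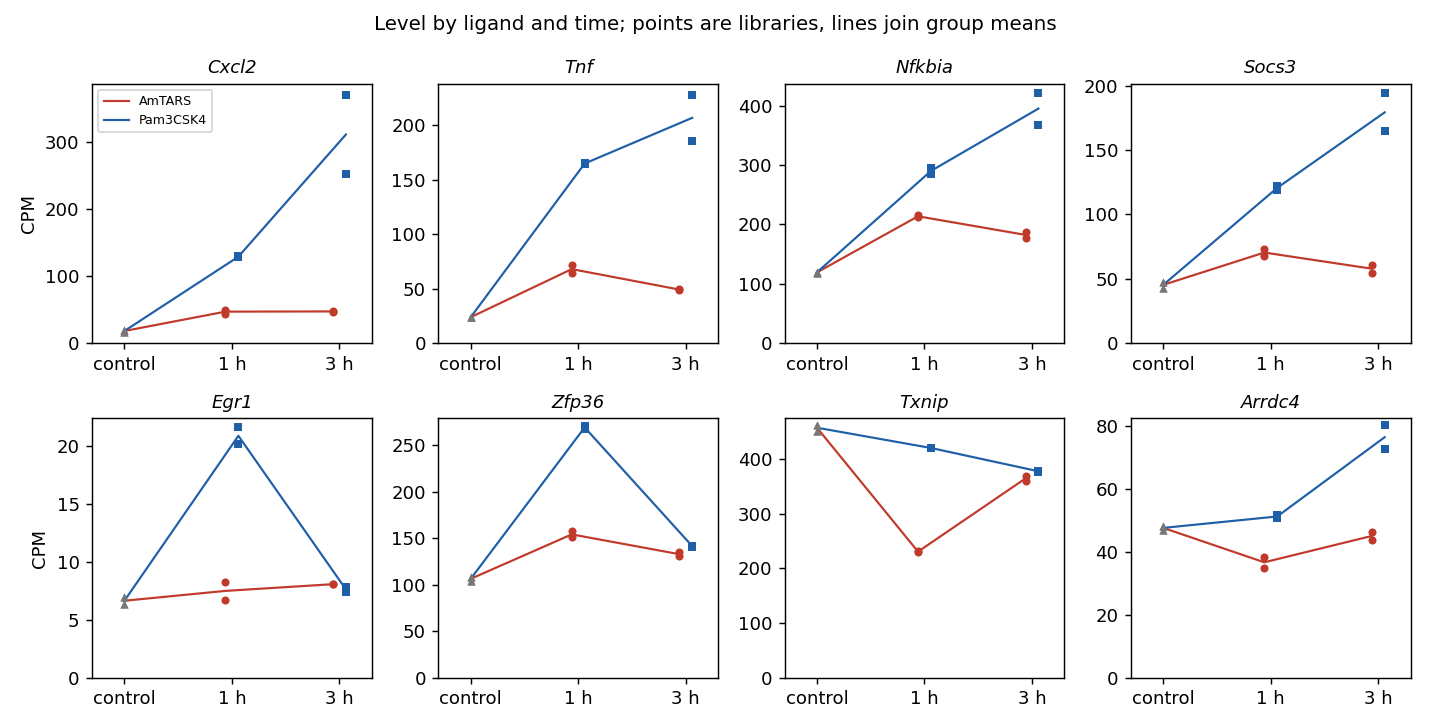
The y axis of each panel gives the level of 1 gene in CPM and the x axis the control and both times; circles are AmTARS libraries, squares Pam3CSK4 libraries, triangles control libraries, and lines join group means. The control carries no time label, and its place at the left is a baseline. Both Pam3CSK4 libraries at 3 h lie above those at 1 h for Cxcl2, Tnf, Nfkbia and Socs3, and below them for Egr1 and Zfp36.

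Setting the 1 h difference beside that at 3 h separated the genes into those whose ligand difference grew and those where it closed. The test was of the difference between the 1 h and the 3 h contrast, which share no library; 1049 genes (9.2%) passed it, with a positive change in 5.71% and a negative one in 3.49% of the genes tested. At 3 h 1953 genes (17.1%) differed between the ligands, 8.04% higher and 9.08% lower with AmTARS. Of the 18 genes raised by Pam3CSK4 at 1 h, 13 were lower with AmTARS at 3 h too and 5 did not differ then. In 7 of the 18 the difference was larger at 3 h, in 5 smaller, and in the other 6 the change did not pass. The 7 were Cxcl2, Cxcl1, Tnf, Socs3, Nfkbiz, Nfkbia and Tnfaip3. Cxcl2 at 3 h had 47.1 and 46.7 CPM with AmTARS and 252 and 369 CPM with Pam3CSK4, and the ligand difference was -1.45 at 1 h and -2.68 at 3 h. Cxcl1 at 3 h had 22.5 and 24.1 CPM with AmTARS and 149 and 219 CPM with Pam3CSK4, and the ligand difference was -1.23 at 1 h and -2.90 at 3 h. In both chemokines the AmTARS level at 3 h was close to that at 1 h, while the Pam3CSK4 level was higher. Tnf at 3 h had 49.0 and 49.1 CPM with AmTARS and 186 and 228 CPM with Pam3CSK4, and Nfkbia had 188 and 177 CPM with AmTARS and 368 and 422 CPM with Pam3CSK4. Socs3 at 3 h had 54.8 and 60.7 CPM with AmTARS and 165 and 194 CPM with Pam3CSK4. In Tnf, Nfkbia and Socs3 both AmTARS libraries at 3 h were below both at 1 h.

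The 5 genes whose difference was smaller at 3 h were Egr1, Zfp36, Fos, Csrnp1 and Btg2, and at 3 h none of them differed between the ligands. Egr1 at 3 h had 8.06 CPM in both AmTARS libraries and 7.41 and 7.82 CPM with Pam3CSK4, and the ligand difference was -1.37 at 1 h and 0.07 at 3 h. The high Egr1 level of the Pam3CSK4 libraries was thus seen at 1 h and not at 3 h. Zfp36 at 3 h had 131 and 135 CPM with AmTARS and 142 and 141 CPM with Pam3CSK4, and the difference was -0.80 at 1 h and -0.09 at 3 h. Fos at 3 h had 74.7 and 76.4 CPM with AmTARS and 74.4 and 70.5 CPM with Pam3CSK4, and the difference was -0.46 at 1 h and 0.06 at 3 h. The remaining 6, Tnfsf9, Dusp1, Dusp2, Ier3, Nfkbid and Id3, were lower with AmTARS at both times, with no change of the difference that passed. Tnfsf9 was the most even of them, with -1.03 at 1 h and -1.04 at 3 h.

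Txnip and Arrdc4 parted from each other by 3 h. Txnip had 369 and 361 CPM with AmTARS and 379 and 377 CPM with Pam3CSK4 at 3 h, a difference of -0.86 at 1 h and -0.05 (adjusted p = 0.479) at 3 h, and the change between the times passed (-0.81, adjusted p = 2.23e-08). Arrdc4 had 43.8 and 46.3 CPM with AmTARS and 72.7 and 80.2 CPM with Pam3CSK4 at 3 h, a difference of -0.47 at 1 h and -0.75 at 3 h, and that change just passed (0.28, adjusted p = 0.0496). Arrdc3, which did not differ at 1 h, had 35.7 and 35.2 CPM with AmTARS and 15.3 and 16.6 CPM with Pam3CSK4 at 3 h, a difference of 1.11. Slc30a1 was higher with AmTARS by 0.35 at 1 h and by 0.32 at 3 h.

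**Figure D4:**
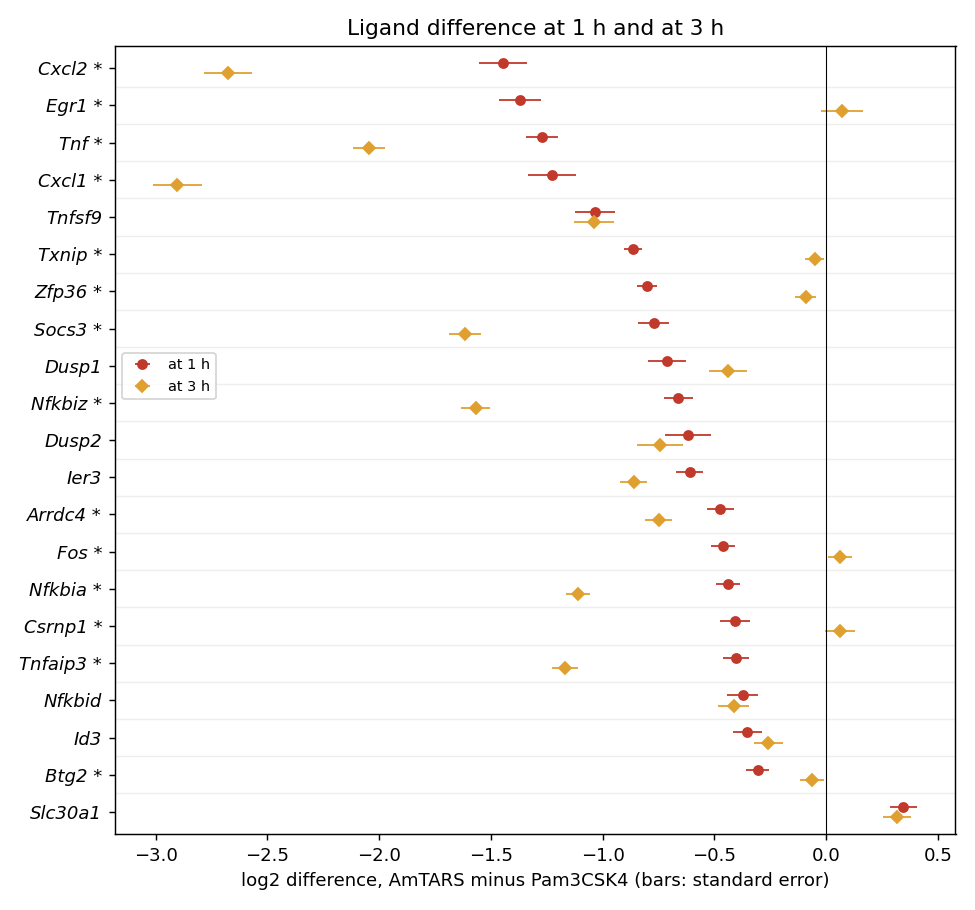
Rows are the 21 genes, and the x axis gives the log2 difference AmTARS minus Pam3CSK4, as red circles at 1 h and yellow diamonds at 3 h with bars of 1 standard error. A star marks a gene whose difference changed between the times; Cxcl1 lies at -1.23 and -2.90, Egr1 at -1.37 and 0.07.

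In the plot of the ligand difference by time, Cxcl1, Cxcl2, Tnf, Nfkbia, Nfkbiz, Socs3 and Tnfaip3 have their diamonds to the left of their circles, whereas Zfp36, a brake like Socs3 and Tnfaip3, has its diamond to the right. The early transcription factors Egr1, Fos and Csrnp1 have them at 0 or just above. The number of genes whose difference changed with time was 675 without AmTARS 3 h replicate 1 and 1333 without Pam3CSK4 3 h replicate 2.

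Of 33 gene lists 24 had no member that differed between the ligands at 1 h, with medians from -0.09 (-0.085) to 0.07 (0.074). These 24 lists held 407 genes, of which 47 had an unadjusted p below 0.05 in limma, beside 957 of the 11407 genes tested. In limma's voom on the recovered reads 0 of the 407 passed. This follows from the choice of lists, since voom called the same 21 genes. Of the 21 genes that differed 19 were in a list. The lists were chosen with earlier results of these data known, so this count says nothing on its own about the lists. The 8 measured receptors and co-receptors of TLR2 were among the lists with none. Tlr2 itself had 282 and 272 CPM with AmTARS, 292 and 290 CPM with Pam3CSK4 and 245 and 249 CPM in the control, and its difference of -0.07 did not pass (95% interval -0.19 to 0.05, adjusted p = 0.77). The interval reaches less far than the difference of Btg2, the smallest among the genes that differed. For Tlr1 the difference was 0.06 (95% interval -0.09 to 0.21), for the co-receptor Cd14 -0.09 (95% interval -0.24 to 0.06), and the largest of the list was the scavenger receptor Cd36 (0.16, adjusted p = 0.226). None of 20 MyD88 pathway components passed, the largest being the adaptor Pik3ap1 (0.18), and none of 22 PI3K and AKT genes, the largest being Foxo3 (0.17).

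Of the markers of macrophage polarisation Tnf was the one that differed. It was lower among 16 measured M1 markers, and the other 15 did not pass. Nos2, the inducible nitric oxide synthase, had 14.2 and 13.7 CPM with AmTARS, 15.4 and 17.5 CPM with Pam3CSK4 and 16.6 and 17.2 CPM in the control (-0.23, 95% interval -0.43 to -0.02, adjusted p = 0.569). None of 10 M2 markers passed. Arg1, arginase of alternatively activated macrophages, had 32.0 and 26.4 CPM with AmTARS and 28.7 and 24.6 CPM with Pam3CSK4 (0.12, 95% interval -0.05 to 0.30, adjusted p = 0.716). The mannose receptor Mrc1 had 68.9 and 71.7 CPM with AmTARS and 65.3 and 66.6 CPM with Pam3CSK4 (0.09, 95% interval -0.02 to 0.20, adjusted p = 0.674). None of 31 interferon response genes passed, the largest being Mx2 (-0.33, adjusted p = 0.292). The 21 measured cytosolic aminoacyl-tRNA synthetases of the host, the enzyme family to which AmTARS belongs by its name, had a median of 0.02 (0.015) and none that passed, with Cars the largest (-0.13, adjusted p = 0.588).

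**Figure D5:**
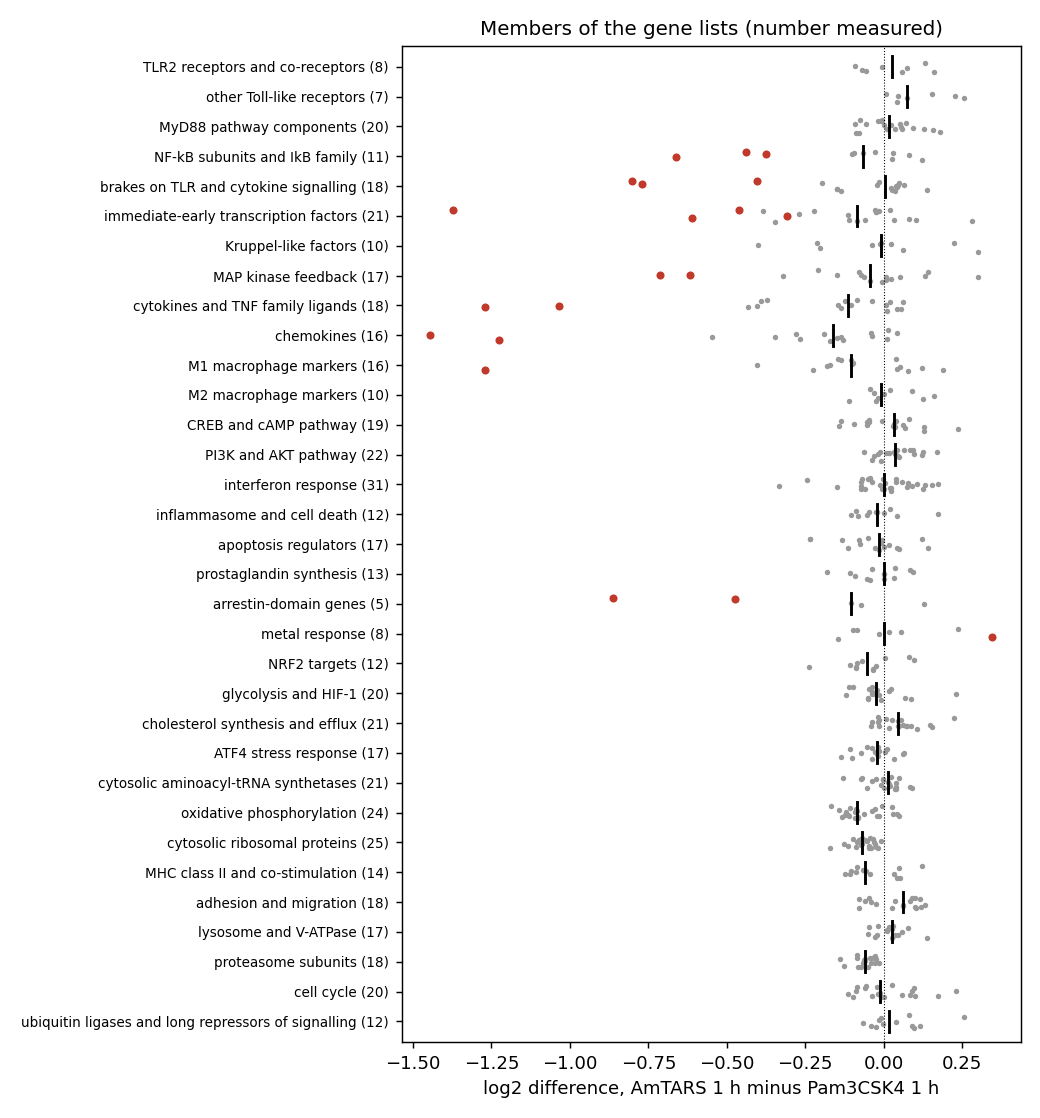
Each row is 1 of the 33 gene lists with its number of measured members, and each point a member at its log2 difference AmTARS minus Pam3CSK4 at 1 h on the x axis. Red points have an adjusted p below 0.05 and the black bar is the list median; every median lies between -0.16 and 0.07.

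The plot of the lists also shows lists whose members lay mostly on 1 side of 0, beside 5794 of 11407 genes tested that had a difference below 0. All 7 measured other Toll-like receptors had a difference above 0, with a median of 0.07 (0.074), and 13 of 16 chemokines a difference below 0. All 25 cytosolic ribosomal proteins had a difference below 0, with a median of -0.07 (-0.068), as had all 18 proteasome subunits, with a median of -0.06, and 20 of 24 oxidative phosphorylation genes, with a median of -0.09 (-0.085). None of the receptors, ribosomal proteins, proteasome subunits or oxidative phosphorylation genes passed the test. Across 11366 genes the difference between the ligands rose with transcript length (Spearman's rho 0.316, across genes) and fell with GC content (rho -0.249). After the length and GC correction the median was 0.001 for the ribosomal proteins, -0.03 (-0.033) for the proteasome subunits, -0.03 (-0.031) for oxidative phosphorylation, 0.05 (0.049) for the other Toll-like receptors and -0.13 (-0.132) for the chemokines. The 21 genes that differed had a median transcript length of 2313 nt beside 3405 nt for all genes tested, and all 21 passed after the correction, with 3 more. These were Klf11, a Kruppel-like factor, with 7.76 and 8.91 CPM with AmTARS and 10.67 and 11.98 CPM with Pam3CSK4, Mir703, with 6.75 and 5.196 CPM with AmTARS and 4.22 and 3.48 CPM with Pam3CSK4, and Gna12, a G-protein subunit, with 87.2 and 93.5 CPM with AmTARS and 76.7 and 80.2 CPM with Pam3CSK4. As deposited, their adjusted p was 0.0952, 0.135 and 0.242.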

How the data were processed

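Poly-A selected, stranded libraries were sequenced. The submitters' processing notes name STAR 2.5.1, R 3.3.0 and build mm10; counter, annotation and scaling are not given in the sources used here. Values are log2(CPM + 1) as deposited by the authors, CPM being reads per 1e+06 after scaling. Back-transformed, 100% of them were whole reads within 0.1 read, and depth was 27398791 to 37559810 reads in listed genes.

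Using limma 3.58.1 in R 4.3.3, group means were estimated from the deposited log2 values of all 10 libraries with an intensity trend (5 residual and 14.7 prior degrees of freedom). Two-sided p-values were adjusted by Benjamini-Hochberg over the 11407 genes that averaged 1 CPM or more. SE is the moderated standard error. The pseudocount of 1 understates changes at low levels. Named genes were the 12 largest rises and falls that passed (8 after correction), 13 genes of a set list, and the largest members of each list; Csrnp1 and Id3, which passed but fall outside this rule, were named after their values were seen. Natural splines, each with 5 degrees of freedom, on length and GC content of the longest GENCODE M21 transcript gave the length and GC correction (11366 genes matched, 352 by synonym). Alternatives changed the filter, the pseudocount (0.25 or 5), the scaling (quantile or median), the spread estimate, the model (voom on recovered reads, a replicate term) and the libraries included. Joining the correction with left-out libraries or with the replicate term was decided after seeing the data. The members and lists were chosen with earlier results of these data known. The calculation was tested on simulated data. Plots used matplotlib 3.10.9 under Python 3.11.15.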

Additional observations from a re-analysis of the deposited data

Results flagged for a closer look

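Each gene named here had a difference between AmTARS and Pam3CSK4 that changed between 1 h and 3 h by the interaction test in limma (adjusted p below 0.05). The number after each is the log2 difference at 1 h minus that at 3 h, where a positive value means that AmTARS lay further below Pam3CSK4, or less far above it, at 3 h. A pattern of this kind was common, with 1049 of 11407 genes (9.2%) passing.

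Among the secreted signals the values were Cxcl3 (2.44), Il1b (2.10), Il6 (1.69), Cxcl1 (1.68), Cxcl2 (1.23), Tnf (0.78) and Cxcl10 (0.65). Among the IkB family and the brakes they were Nfkbiz (0.91), Socs3 (0.84), Tnfaip3 (0.77), Nfkbia (0.67) and Zfp36 (-0.71). Among the immediate-early list they were Egr1 (-1.44), Fos (-0.52), Ier2 (-0.47) and Btg2 (-0.24), and Csrnp1, in no list, had -0.47. Receptors and effectors of inflammation gave Nos2 (1.91), Tlr2 (1.11), Bcl2a1a (1.07), Ptgs2 (1.00), Tlr1 (0.77) and Cd14 (0.74); none of these differed between the ligands at 1 h. Tlr2 at 3 h had 364 and 365 CPM with AmTARS and 760 and 896 CPM with Pam3CSK4. Nos2 at 3 h had 18.0 and 19.1 CPM with AmTARS and 73.2 and 99.1 CPM with Pam3CSK4.

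The arrestin-domain genes gave Txnip (-0.81), Arrdc3 (-0.98) and Arrdc4 (0.28), and the metallothioneins Mt1 (-0.49) and Mt2 (-0.50). Mt1 at 3 h had 175 and 156 CPM with AmTARS and 117 and 134 CPM with Pam3CSK4. The others were Mir703 (0.78), Hif1a (0.76), Creb5 (0.56), Kpna4 (0.46), Mx2 (-0.48) and Cxcr4 (-0.38).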

How the results depend on the processing

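The ligand difference at 1 h covered 21 genes as deposited and 42 (31 lower and 11 higher with AmTARS) when the 4 libraries alone were fitted. All 21 were among the 42, and of the 21 further genes 11 were lower and 10 higher. They included Il1b, Cxcl10, Ier2 and Junb on the lower side and Kpna4, Lypla1, Hif1a and Maf on the higher side. Leaving out each library gave 15 to 34 genes, the lowest without AmTARS 1 h replicate 2 and the highest without Pam3CSK4 3 h replicate 3. Without the intensity trend 14 genes differed. Of the 21 genes 12 passed under each of 28 alternatives, and none of the 21 changed direction in any of them. Dusp1, Nfkbia and Tnfaip3 were lost without the trend, and Dusp2, Csrnp1, Nfkbid, Id3, Btg2 and Slc30a1 under 6 to 9 alternatives each. The number of genes whose ligand difference changed between 1 h and 3 h was 1049; it was 680 without the intensity trend and 675 to 1333 on leaving out each library. After the length and GC correction the number was 1353, and 989 of the 1049 were among them. In the fit of the 4 libraries, and without a 3 h or control library, the 1 h log2 differences themselves stayed the same (Tnf -1.27). There the estimate of spread was what differed. The cause of the other shifts was not tested. Depth limited the least abundant gene called, Dusp2, to 147 reads at the lowest. With a replicate block the counts were 15 and 672. The numbers share no animal, culture or batch in the labels, and the groups compared at 1 h share number 3 alone, so no pairing was taken. Deviations of libraries with the same number correlated at -0.206 to 0.204, and those with different numbers at -0.206 to 0.206. The value for replicate 3 of the groups compared was 0.153. With 2 libraries per group the deviations mirror each other, so these values cannot decide on pairing.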
